A study of Citrus sinensis with 30 samples.

Results

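Phenylalanine ammonia-lyase (PAL) removes ammonia from phenylalanine and yields trans-cinnamate, the first step of the phenylpropanoid pathway. Cinnamate is then hydroxylated and joined to coenzyme A, and the product feeds flavonoids and anthocyanins on one branch and lignin and other phenolic compounds on others. Plants carry PAL as a small gene family, and its transcripts are known to respond to cold, wounding and light. The genes described here are those of the deposited expression table whose description holds the words phenylalanine ammonia-lyase, together with Cs6g11940, which gave 3 genes of 24179. The description named 2 of them, Cs8g16290 and Cs7g25030, and Cs6g11940 is described there as a hypothetical protein. All 3 carry the KEGG orthology number K10775 and the enzyme number EC 4.3.1.24 of PAL. A further 2 genes, Cs6g11950 and Cs7g24940, carry the same numbers under a hypothetical-protein description, and their values are given beside those of the 3 genes, making 5 genes in all. The 5 genes shared 10 of the 16 gene ontology terms listed for any of them.

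The tissue was the fruit juice sac of 2 Citrus sinensis varieties, the anthocyanin-forming ‘Tarocco’ blood orange (TBO) and the ‘Bingtangcheng’ sweet orange (BTSO) of low acidity, and the sampling days were 0, 15, 30, 60 and 90, counted from the start of storage (days after storage, DAS). All fruit were bought mature from an experimental station, bagged one by one and kept in a cooled chamber, so that 0 DAS is the only group without storage, and each library came from the pooled juice sacs of several fruit. There were 30 libraries in 10 groups, with 3 biological replicates in each. Variety is confounded with everything else that differed between the fruit of TBO and BTSO, and these cannot be told apart.

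The unit is the FPKM, fragments scaled to transcript length and to the mapped fragments of the library, so that levels of genes can be compared per length. The summed estimated counts of a library lay between 51894138 and 75833189, and 19165 to 20597 genes were above 0. Replicates of a group correlated at r between 0.969 and 0.985 across genes on log2(FPKM + 1). The glutathione S-transferase gene Cs6g15900, known for anthocyanin transport, lay between 174 and 891 FPKM in TBO libraries and between 0.268 and 4.33 FPKM in BTSO libraries, so no library stood against its variety label. The juice sac identity of the samples was not checked against markers of other fruit tissues. In such bulk samples, fewer cells of a type and less RNA per cell cannot be told apart.

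The PAL genes were expressed at very different levels. By mean FPKM over the 30 libraries, Cs6g11940 ranked 1717 of 24179 genes with 44.0 FPKM, Cs8g16290 ranked 2567 with 31.0 FPKM and Cs6g11950 ranked 3323 with 24.4 FPKM. Cs7g24940 (rank 12572, 2.60 FPKM) and Cs7g25030 (rank 14385, 1.40 FPKM) were low. All 5 passed the filter of 1 FPKM in at least 3 libraries. In BTSO, Cs6g11940 reached 1 FPKM in 15 of 15 libraries and Cs8g16290 in 13, but Cs6g11950 did so in 5, Cs7g24940 in 1 and Cs7g25030 in 0. In TBO the libraries at 1 FPKM or more numbered 15 for Cs6g11940, Cs8g16290 and Cs6g11950, 12 for Cs7g24940 and 11 for Cs7g25030. Cs7g25030 and Cs7g24940 therefore passed the filter only through TBO, and only through its later days, where they had to be the higher, so their calls between varieties and over storage are given as a description. By their locus names Cs6g11940 and Cs6g11950 are consecutive, as are their assembled loci, and Cs7g24940 and Cs7g25030 lie close in the numbering. Reads that match several near-identical copies may have been divided among them by the quantification, so each value of a single copy is uncertain to that extent.

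**Figure D1:**
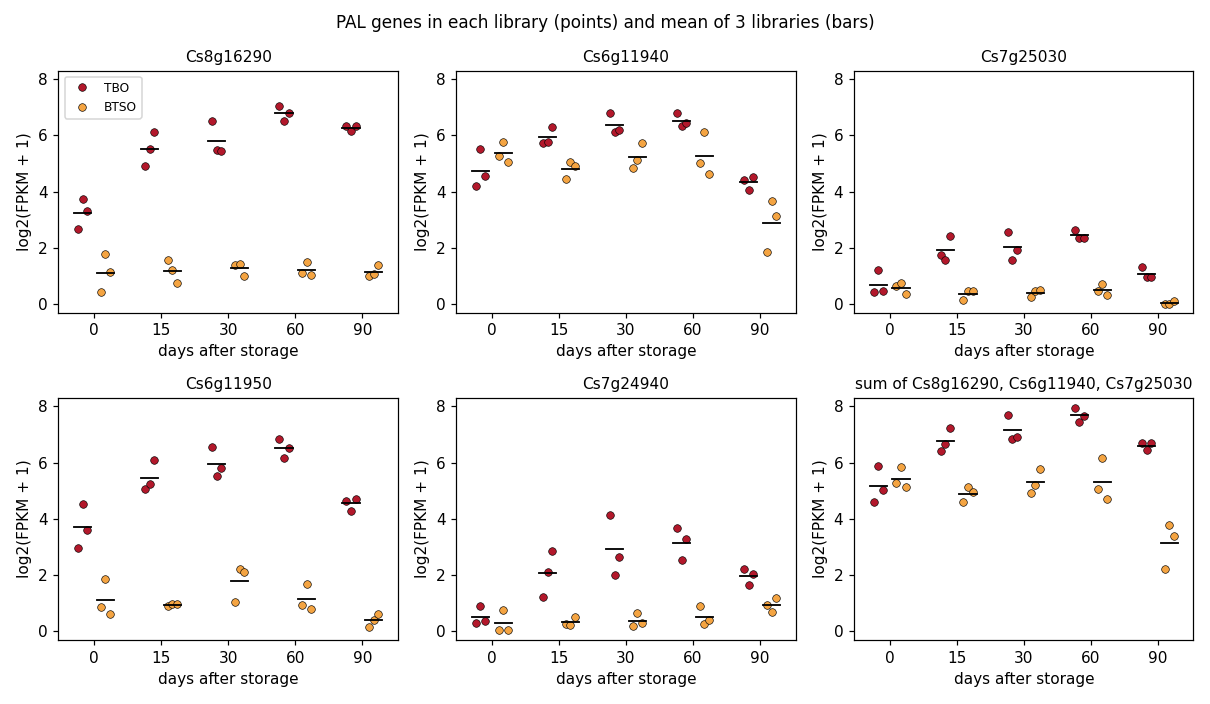
FPKM of the 5 PAL genes, and of the sum over the 3 genes of the rule, on a log2(FPKM + 1) axis against days after storage, with 1 point per library, a bar at the mean of the 3 libraries of a group and the 5 days evenly spaced. Cs8g16290 lies above 5 FPKM in every TBO library and below 2.5 FPKM in every BTSO library, whereas Cs6g11940 is well expressed in both varieties and lowest at 90 DAS.

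Cs8g16290 was higher in TBO than in BTSO on every day, and in TBO it was the most abundant PAL transcript from 60 DAS on. In TBO it measured 5.32, 12.4 and 8.96 FPKM on day 0, 29.1, 44.3 and 69.4 on day 15, 89.6, 44.1 and 42.9 on day 30, 131, 90.3 and 111 on day 60, and 80.3, 70.4 and 78.9 on day 90. In BTSO it measured 0.358, 2.41 and 1.23 FPKM on day 0, 1.95, 1.35 and 0.672 on day 15, 1.65, 1.67 and 1.01 on day 30, 1.14, 1.86 and 1.05 on day 60, and 1.02, 1.12 and 1.62 on day 90. The lowest TBO library, at 5.32 FPKM, was above the highest BTSO library, at 2.41 FPKM, so that the varieties overlapped on none of the 5 days. The group means in descending order were TBO at 60 (111 FPKM), 90 (76.6), 30 (58.9), 15 (47.6) and 0 DAS (8.90), followed by the BTSO groups, whose means spanned only 1.25 to 1.44 FPKM. Neighbouring groups overlapped in 6 of the 9 steps of that order. The gaps without overlap lay below TBO on day 60, above TBO on day 0 and between TBO on day 0 and the BTSO groups.

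The TBO minus BTSO difference of Cs8g16290 on the log2(FPKM + 1) scale was 2.12 on day 0, 4.34 on day 15, 4.54 on day 30, 5.58 on day 60 and 5.11 on day 90 (SE 0.33 each, n = 3 libraries per group). On this scale the change of a low gene is understated, and the ratio of the mean FPKM of TBO over BTSO was 6.68 on day 0 and 82.3 on day 60. The largest adjusted p-value over the 5 days was 1.68e-05 (limma, Benjamini-Hochberg, over 16578 genes). In TBO the transcript rose at every later day against 0 DAS, with log2 differences of 2.28, 2.58, 3.55 and 3.03 at 15, 30, 60 and 90 DAS and adjusted p-values of at most 6.06e-05 (limma). In BTSO the differences against 0 DAS were between 0.04 and 0.15, and none was called. The variety difference was itself larger at every later day than on day 0, by 2.22 on day 15 (adjusted p = 0.0234), 2.42 on day 30 (0.00212), 3.46 on day 60 (2.17e-05) and 2.99 on day 90 (0.000142, limma interaction). The change at 15 DAS was lost in 7 of 37 alternative settings.

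Cs6g11940 was the only PAL gene that was well expressed in both varieties. In TBO it measured 17.5, 44.4 and 22.4 FPKM on day 0, 52.1, 54.0 and 77.4 on day 15, 111, 68.4 and 72.8 on day 30, 109, 79.8 and 86.6 on day 60, and 20.1, 15.8 and 21.9 on day 90. In BTSO it measured 37.3, 53.8 and 32.6 FPKM on day 0, 21.0, 32.0 and 29.2 on day 15, 27.5, 34.3 and 51.8 on day 30, 31.1, 69.0 and 24.0 on day 60, and 2.65, 11.6 and 7.89 on day 90. At 0 DAS the varieties overlapped, with means of 28.1 ± 14.4 FPKM in TBO and 41.2 ± 11.1 FPKM in BTSO (SD, n = 3 each), and at the other 4 days every TBO library was above every BTSO library. The order of the group means ran from TBO on day 60 (91.8 FPKM) to BTSO on day 90 (7.38 FPKM), and neighbouring groups overlapped in 8 of the 9 steps. The one gap lay between TBO on day 90 (19.3 FPKM) and BTSO on day 90.

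The log2 difference of Cs6g11940 between TBO and BTSO was -0.62 at 0 DAS (adjusted p = 0.203, limma), which was not called. It was 1.13 on day 15, 1.14 on day 30, 1.26 on day 60 and 1.44 on day 90 (SE 0.39 each), with adjusted p-values of 0.0189, 0.0167, 0.00938 and 0.00353 (limma), all called higher in TBO. These differences stood just past the log2 limit of 1. Without TBO replicate 3 or BTSO replicate 1 of 15 DAS the difference of that day was 0.95, without TBO replicate 1 or BTSO replicate 1 of 30 DAS it was 0.93 or 0.95, without BTSO replicate 3 of 60 DAS it was 0.96 and without BTSO replicate 1 of 90 DAS it was 0.93. The 15 DAS difference was also under 1 with upper-quartile scaling (0.93), edgeR (0.99) and DESeq2 (0.99). In TBO the gene rose by 1.62 on day 30 and 1.77 on day 60 against 0 DAS (adjusted p = 0.00231 and 0.000815, limma). The rise of 1.18 on day 15 (adjusted p = 0.0494) was lost in 25 of 37 alternative settings, and on day 90 the difference was -0.42 (adjusted p = 0.371). In BTSO it did not pass the test at 15, 30 or 60 DAS, with differences between -0.56 and -0.11, and fell by 2.48 at 90 DAS (adjusted p = 1.84e-05, limma). The variety difference of Cs6g11940 exceeded that of 0 DAS by 1.76 on day 30, 1.88 on day 60 and 2.05 on day 90 (adjusted p = 0.0453, 0.0222 and 0.0154, limma), whereas the change of 1.74 on day 15 was not called (adjusted p = 0.139). The calls at 30, 60 and 90 DAS were lost in 20, 6 and 1 of 37 alternative settings.

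Cs7g25030, the second gene named PAL in its description, was a low-level copy. In TBO it measured 0.345, 1.3 and 0.379 FPKM on day 0, 2.36, 1.95 and 4.35 on day 15, 4.91, 2.00 and 2.81 on day 30, 5.26, 4.06 and 4.17 on day 60, and 1.49, 0.967 and 0.969 on day 90. In BTSO its highest value was 0.676 FPKM, and at 90 DAS it was listed at 0 in 2 libraries and at 0.0822 FPKM in the other. Varieties overlapped at 0 DAS only. TBO on day 60 had the highest mean (4.50 FPKM) and overlapped with TBO on day 30 (3.24 FPKM), and 7 of 9 neighbouring pairs of groups overlapped. The log2 differences of Cs7g25030 between TBO and BTSO were 0.12 on day 0 (adjusted p = 0.703), and then 1.55, 1.62, 1.95 and 1.05 on days 15, 30, 60 and 90 (SE 0.23 each, adjusted p at most 0.000464, limma). At 90 DAS the difference was 0.98 with upper-quartile scaling, 0.90 with quantile normalization and 0.94 without TBO replicate 1 of that day, each under the limit. In TBO it rose by 1.21, 1.33 and 1.76 on days 15, 30 and 60, and the difference on day 90 was 0.39 (adjusted p = 0.147, limma). The rise at 15 DAS was 0.96 without TBO replicate 3 of that day. The variety difference exceeded that of 0 DAS by 1.43, 1.51 and 1.83 at 15, 30 and 60 DAS (adjusted p = 0.0333, 0.00448 and 0.000361, limma), the first of which was lost in 9 of 37 alternative settings. The change on day 90 was not called, but was so in 7 of 37 alternative settings, at 4.72 with edgeR and 4.82 with DESeq2.

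Cs6g11950, next to Cs6g11940 in the locus numbering, followed Cs8g16290 rather than its neighbour in the contrast of varieties. In TBO it measured 6.82, 22.2 and 11.3 FPKM on day 0, 32.3, 36.9 and 68.2 on day 15, 93.6, 44.8 and 55.0 on day 30, 113, 71.8 and 90.0 on day 60, and 24.1, 18.6 and 25.1 on day 90. In BTSO the lowest value was 0.128 FPKM, on day 90, and the highest 3.65 FPKM, on day 30. Every TBO library was above every BTSO library of any day. The log2 differences of Cs6g11950 between TBO and BTSO were 2.59, 4.51, 4.17, 5.37 and 4.15 on days 0, 15, 30, 60 and 90 (SE 0.38 each, adjusted p at most 8.63e-06, limma). In TBO it rose by 1.77, 2.26 and 2.80 on days 15, 30 and 60, and on day 90 the difference of 0.84 was not called (adjusted p = 0.0635). The change of the variety difference was called on day 60 alone, at 2.78 (adjusted p = 0.000952), and those of 1.93, 1.58 and 1.56 on days 15, 30 and 90 had adjusted p-values of 0.0898, 0.0648 and 0.0585 (limma). These were called in 1, 3 and 7 of 37 alternative settings, at 2.72 with edgeR and 2.75 with DESeq2 on day 90.

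Cs7g24940 had the largest SE of the 5 genes on the log2(FPKM + 1) scale, at 0.40 for the variety difference, against 0.39 for Cs6g11940. In TBO it measured 0.232, 0.881 and 0.298 FPKM on day 0, 1.34, 3.33 and 6.34 on day 15, 16.5, 2.99 and 5.26 on day 30, 11.9, 4.75 and 8.69 on day 60, and 3.71, 2.12 and 3.11 on day 90. In BTSO it ranged between 0.0376 FPKM on day 0 and 1.28 FPKM on day 90, and its BTSO mean was highest on day 90 (0.928 ± 0.339 FPKM, SD, n = 3). The varieties overlapped at 0 DAS only. Its log2 differences between TBO and BTSO were 0.24 on day 0 (adjusted p = 0.655) and 1.73, 2.54, 2.63 and 1.04 on days 15, 30, 60 and 90 (SE 0.40 each, adjusted p = 0.00101, 1.64e-05, 1.06e-05 and 0.0341, limma). The call at 90 DAS was lost in 6 of 39 alternative settings, at 0.91 without TBO replicate 1 and at 0.91 without BTSO replicate 2 of that day among them. In TBO it rose against 0 DAS on every later day, by 1.54, 2.39, 2.63 and 1.44 (adjusted p at most 0.0138, limma). The rise at 15 DAS was lost without TBO replicate 1 or 3 of 0 DAS (1.43 and 1.47) and without TBO replicate 3 of 15 DAS (1.14). The variety difference of Cs7g24940 exceeded that of 0 DAS by 2.30 on day 30 and 2.39 on day 60 (adjusted p = 0.0128 and 0.00564, limma).

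Of the genes that also reached the filter in BTSO, Cs8g16290 and Cs6g11950 were called higher in TBO on all 5 days and Cs6g11940 on the 4 later days. As a description that includes the genes which passed through TBO alone, 1 of the 3 genes of the rule was called on day 0 and 3 of 3 on days 15, 30, 60 and 90. A difference between varieties was called where the log2 difference was over 1 and the p-value, not adjusted, was under 0.05. With adjusted p-values the same number of calls, 13 of 15 gene and day pairs, was made. Among all 16578 genes tested, 3.90% were called higher in TBO on day 0, 5.17% on day 15, 5.56% on day 30, 6.67% on day 60 and 5.95% on day 90. With the 2 further genes the counts were 2 of 5 at 0 DAS and 5 of 5 at each later day.

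**Figure D2:**
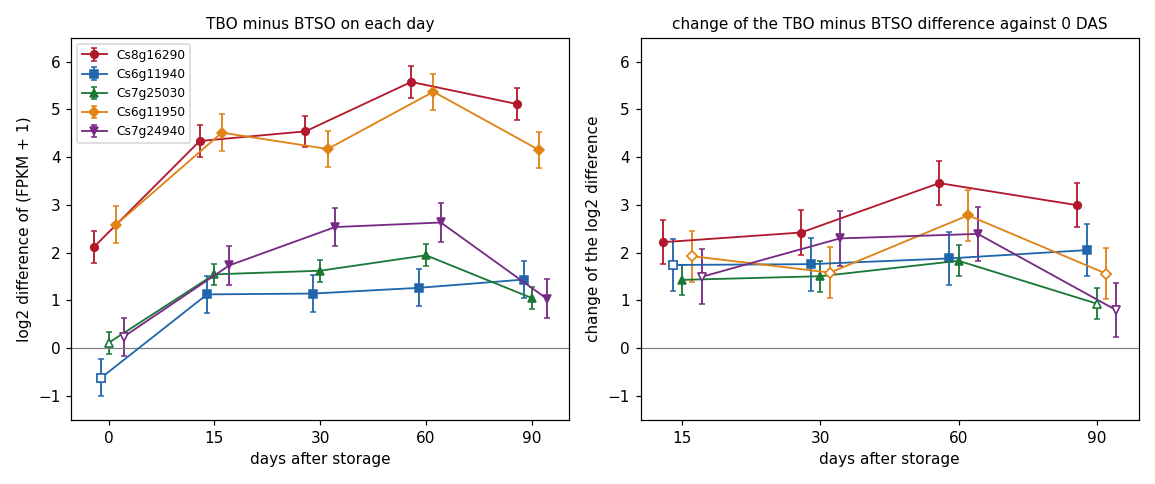
TBO minus BTSO log2 difference of (FPKM + 1) of each PAL gene on each day (left) and its change against the difference at 0 DAS (right), as limma estimates with SE bars (3 libraries per group), filled where called and open where not. Cs8g16290 and Cs6g11950 start above 2 on day 0 and exceed 5 on day 60, and the other 3 genes pass the limit from 15 DAS on.

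Over storage the TBO and BTSO copies were compared with their own 0 DAS libraries, and called where the log2 difference was over 1 and the adjusted p-value under 0.05. In TBO, 3 of 3 genes rose on days 15, 30 and 60, against 0.730%, 3.00% and 5.35% of all genes tested, and 1 of 3 was higher on day 90, against 7.24%. With the 2 further genes the counts were 5 of 5 on days 15, 30 and 60 and 2 of 5 on day 90, namely Cs8g16290 and Cs7g24940. These counts include Cs7g25030 and Cs7g24940, which reached the filter only through the later days of TBO. They also include Cs6g11940 on day 15, a call that was lost in 25 of 37 alternative settings. In BTSO 0 of 3 genes were called at 15, 30 or 60 DAS in either direction, where 1.43%, 6.29% and 5.79% of all genes were. None of the 5 PAL genes of BTSO had an unadjusted p-value under 0.05 on these 3 days in limma, and edgeR and DESeq2 also called 0. At 90 DAS 1 of 3 BTSO genes, Cs6g11940, was lower, against 2.98% of all genes. The variety difference was larger than on day 0 in 2 of 3 genes on day 15, 3 of 3 on days 30 and 60 and 2 of 3 on day 90, where 0.766%, 4.82%, 7.56% and 7.04% of all genes were called in that direction. These changes share the 0 DAS libraries, and without TBO replicate 1, TBO replicate 3 or BTSO replicate 2 of 0 DAS the 10 calls became 5, 6 and 6. The 10 calls include those of Cs7g25030 on days 15, 30 and 60, a gene that reached the filter only through the later days of TBO. Its calls are given as a description.

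**Figure D3:**
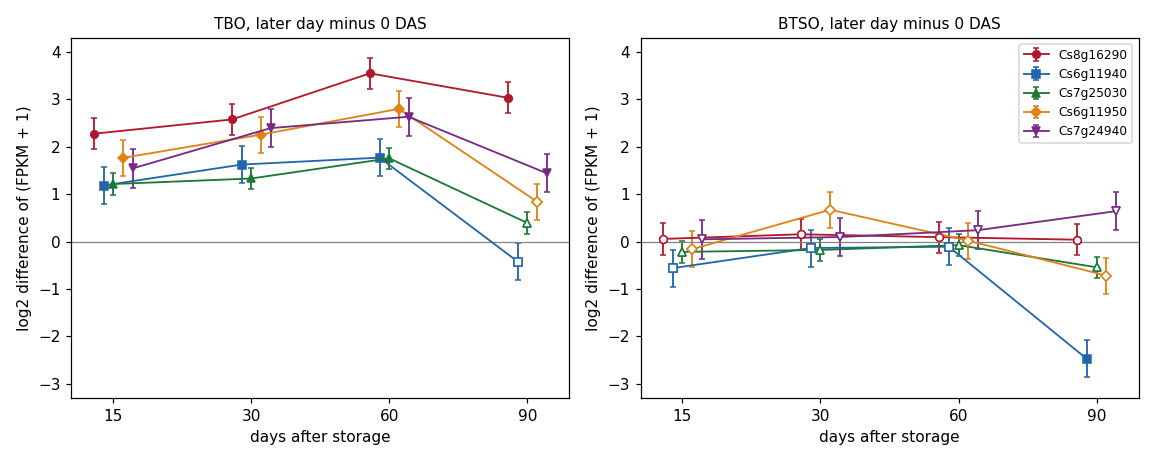
Log2 difference of (FPKM + 1) of each later day against 0 DAS in TBO (left) and BTSO (right), as limma estimates with SE bars, filled where called and open where not. All 5 genes are called higher in TBO on days 15, 30 and 60, and in BTSO only Cs6g11940 on day 90 is called, at -2.48. The TBO call of Cs6g11940 on day 15 was lost in 25 of 37 alternative settings. Cs7g25030 and Cs7g24940 passed the filter through TBO alone.

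Cs6g11940 fell in both varieties between 60 and 90 DAS, and Cs8g16290 was not called in either. This comparison was added after the values had been seen. Cs6g11940 fell by 2.19 in TBO and by 2.37 in BTSO at 90 DAS against 60 DAS (adjusted p = 0.00024 and 0.00013, limma). In TBO Cs6g11950 fell by 1.96, Cs7g25030 by 1.36 and Cs7g24940 by 1.19 (adjusted p = 0.000557, 0.00012 and 0.0311), the last of which was lost in 7 of 37 alternative settings. Cs8g16290 had a difference of -0.52 in TBO, which was not called (adjusted p = 0.258). Thus 2 of the 3 genes, and 4 of the 5, were called lower in TBO, against 1.56% of all genes tested. Among these, Cs7g25030 and Cs7g24940 reached the filter only through the later days of TBO, 60 DAS included, so their falls are given as a description. In BTSO 1 of 3, and 1 of 5, was called lower, against 1.27%. With a pseudocount of 0.1, edgeR or DESeq2, Cs6g11950 (-1.65, -1.95 and -1.97) and Cs7g25030 (-2.04, -3.74 and -3.83) were also called lower in BTSO, making 2 of 3 and 3 of 5.

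The same can be read within each library as a ratio of copies, which does not depend on the scaling of the library. In TBO the ratio of Cs8g16290 to Cs6g11950 lay between 3.14 and 3.78 on day 90, against 1.17 to 1.26 on day 60, and its medians on days 0, 15 and 30 were 0.780, 1.02 and 0.957. The ratio of Cs8g16290 to Cs6g11940 in TBO had medians of 0.305, 0.819, 0.644, 1.21 and 3.99 on days 0, 15, 30, 60 and 90. In BTSO, where Cs8g16290 and Cs6g11950 were low, their ratio had a median of 3.34 and was at least 3.06 on day 90, against 0.829 to 1.45 on day 60. The BTSO ratio of Cs8g16290 to Cs6g11940 lay between 0.0964 and 0.385 on day 90, against 0.0269 to 0.0439 on day 60. Both ratios were thus higher on day 90 than on day 60 without overlap in TBO and in BTSO alike, and the exact permutation test gave p = 0.1 for each, the smallest two-sided value that 3 against 3 libraries allow. The neighbours Cs6g11950 and Cs6g11940 had a TBO ratio with medians of 0.500, 0.683, 0.755, 1.03 and 1.18 on the 5 days. In BTSO that ratio stayed between 0.0163 and 0.107 in all 15 libraries.

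Expressed as shares of the summed FPKM of the 5 genes, Cs6g11940 led in BTSO on every day and in TBO on days 0, 15 and 30, and Cs8g16290 led in TBO on days 60 and 90. In TBO, Cs8g16290 made up 17.9 ± 2.71% of the sum on day 0, 29.0 ± 3.68% on day 15, 26.5 ± 2.25% on day 30, 36.2 ± 0.763% on day 60 and 62.6 ± 2.35% on day 90 (SD, n = 3 each). The share of Cs6g11940 in TBO was 54.8 ± 3.06% on day 0, 39.1 ± 5.11% on day 15, 39.4 ± 3.69% on day 30, 30.0 ± 1.60% on day 60 and 15.7 ± 1.11% on day 90. In BTSO Cs6g11940 made up 88.6% to 92.9% of the sum on days 0, 15, 30 and 60 and 70.2 ± 14.3% on day 90. The BTSO share of Cs8g16290 was 14.7 ± 6.76% at 90 DAS, when the whole sum was low.

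**Figure D4:**
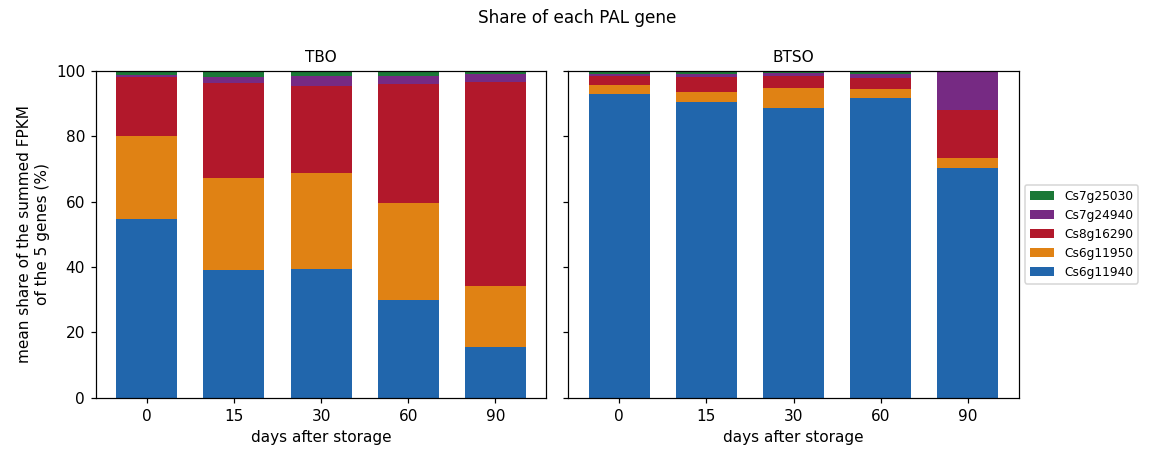
Mean share, in percent, of each of the 5 PAL genes in their summed FPKM for TBO (left) and BTSO (right) on each day after storage, 3 libraries per bar. Cs8g16290 reaches 62.6% in TBO at 90 DAS, and Cs6g11940 holds 70.2% to 92.9% in BTSO.

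The summed FPKM of the 3 genes of the rule gave a single level per library, without Cs6g11950 and Cs7g24940. It averaged 37.7 ± 18.3 FPKM in TBO and 43.1 ± 12.1 FPKM in BTSO at 0 DAS, where the libraries overlapped (SD, n = 3 each, exact permutation p = 0.6). At 15 DAS the means were 112 ± 35.3 FPKM in TBO and 29.0 ± 5.43 FPKM in BTSO, and at 30 DAS they were 146 ± 51.4 and 39.6 ± 12.3 FPKM. At 60 DAS they were 207 ± 36.1 FPKM in TBO and 43.1 ± 24.8 FPKM in BTSO, and at 90 DAS 97.0 ± 8.48 and 8.66 ± 4.59 FPKM. From 15 DAS on every TBO library was above every BTSO library, and the two-sided exact permutation p was 0.1 on each of these 4 days. The ratio of TBO to BTSO means was 0.874, 3.85, 3.69, 4.81 and 11.2 on the 5 days. For the sum of all 5 genes this ratio was 1.15, 5.33, 5.14, 6.84 and 12.4. The sum in BTSO rested on Cs6g11940: without it, BTSO means lay between 1.28 and 1.84 FPKM, and TBO exceeded BTSO at 0 DAS as well, with 9.58 FPKM in TBO and 1.84 FPKM in BTSO. With all 5 genes the sum on day 0 was 51.6 FPKM in TBO and 44.7 FPKM in BTSO (exact permutation p = 0.8). The sums of 3 and of 5 genes thus differed in direction on day 0, but the libraries of the varieties overlapped in both, so neither direction is established.

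Replicates of TBO deviated together over the copies. After the group means had been removed, the correlations between pairs of the 5 genes over the 15 TBO libraries were between 0.744 and 0.972 with a median of 0.868, and over the 15 BTSO libraries they had a median of 0.392. These points share libraries and, for near-identical copies, possibly reads. All 5 genes had their highest value in the same replicate in TBO on days 0, 15, 30 and 60 and in BTSO on day 0. Neither these correlations nor this count was computed for other genes. A deviation of the PAL genes thus cannot be told from one of the whole library. In TBO at 30 DAS, replicate 1 measured 89.6 FPKM of Cs8g16290 against 44.1 and 42.9 FPKM in the others, and 16.5 FPKM of Cs7g24940 against 2.99 and 5.26 FPKM. Without that replicate the summed level of the 3 genes at 30 DAS still differed, by 76.9 FPKM between TBO and BTSO, and with it by 107 FPKM.

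The genes whose pattern over the 30 libraries was most like that of each PAL gene were taken by Pearson's r on log2(FPKM + 1). These values describe libraries of 2 varieties, so any gene that separates the varieties scores high. Cs6g11950 was closest to the chalcone synthase gene Cs2g14720 (r = 0.975), to the unnamed locus MSTRG.11720 (0.974) and to Cs5g18370, annotated as a glucuronoxylan methyltransferase (0.974). Cs8g16290 was closest to Cs7g13060, which has no description (0.989), to the solute carrier gene Cs6g15070 (0.987) and to the locus MSTRG.2857 (0.984). Cs6g11940 had weaker matches, led by the purple acid phosphatase gene Cs5g07300 (0.872), the amino acid transporter gene Cs6g19940 (0.870) and the hypothetical Cs3g17010 (0.863). Cs7g24940 was closest to Cs7g13690 (0.942), the gamma-tubulin complex gene Cs5g33260 (0.941) and the cryptochrome DASH gene Cs7g07450 (0.939). Cs7g25030 was closest to orange1.1t03955, described as strictosidine synthase-like (0.941), to the cysteine proteinase gene orange1.1t04070 (0.939) and to Cs7g07450 (0.938).

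The other steps of the pathway were taken from lists matched on the descriptions, with 85 genes listed and 55 tested. On days 0, 15, 30, 60 and 90, the number called higher in TBO was 3, 3, 4, 13 and 8 of the 55. Of all genes tested, 3.90%, 5.17%, 5.56%, 6.67% and 5.95% were called higher on these days. The number called lower was 10, 9, 10, 7 and 7, where 4.03%, 3.78%, 5.28%, 4.74% and 4.94% of all genes were called lower. The median log2 difference of the 55 was -0.03, -0.10, -0.14, 0.11 and 0.15 on these days. More of these genes were called lower than higher in TBO on days 0, 15 and 30. On day 60 more were called higher, and on day 90 the counts were close, at 8 higher and 7 lower. The genes called higher include the chalcone synthase gene Cs2g14720, which passed the filter through TBO alone.

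Upstream, 1 of 3 genes for DAHP synthase, the entry enzyme of the shikimate pathway that supplies phenylalanine, was called higher in TBO on all 5 days. This gene, Cs3g18030, averaged 35.8 ± 3.21 FPKM in TBO and 11.6 ± 1.96 FPKM in BTSO on day 0, and 256 ± 39.6 FPKM in TBO and 11.1 ± 4.34 FPKM in BTSO on day 60 (SD, n = 3 each). Its log2 differences were 1.55, 3.11, 3.47, 4.46 and 4.48 on the 5 days. Of all genes tested, 3.90% to 6.67% were called higher on a single day, and the share for all 5 days was not computed. The single chorismate mutase gene, Cs6g21940, had log2 differences between -0.08 and 0.55. The largest, on day 0, passed the p-value limit but not the log2 limit of 1 (adjusted p = 0.000632, limma). Of arogenate dehydratase genes, which form phenylalanine at the last step, 0 of 2 tested were called on any day. The most expressed of these, Cs8g17280, stayed between 29.5 and 34.4 FPKM in TBO and between 22.8 and 33.6 FPKM in BTSO by group mean. None of the 2 kelch-repeat F-box genes, whose Arabidopsis relatives mark PAL for breakdown, was called on any day. The most expressed, Cs1g14060, had log2 differences between -0.26 and 0.71. That of 0.71, on day 30, passed the p-value limit but not the log2 limit of 1 (adjusted p = 0.000587, limma). With so few genes, 0 calls do not set the arogenate dehydratase or F-box genes apart from all genes.

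Directly downstream of PAL, no cinnamate 4-hydroxylase gene was called. The main one, Cs1g08620, found by its orthology number, averaged 86.2 ± 3.54 FPKM in TBO and 92.2 ± 2.23 FPKM in BTSO on day 0, and 106 ± 4.41 FPKM in TBO and 94.0 ± 16.7 FPKM in BTSO on day 60 (SD, n = 3 each). Its largest log2 difference was 0.59, at 30 DAS, which passed the p-value limit but not the log2 limit of 1 (adjusted p = 8.59e-05, limma). Of 4-coumarate-CoA ligase genes, which activate the hydroxylated acid, 1 of 6 by description was called higher at 30 and at 60 DAS and 0 on the other days. By orthology number, 1 of 12 was called higher at 60 DAS, 2 at 90 DAS and 0 on the other days. The shares of all genes called higher on days 30, 60 and 90 were 5.56%, 6.67% and 5.95%. The most expressed by orthology number, Cs9g02530, had log2 differences between -0.21 and 0.22.

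At the entry to flavonoids, 2 of 6 chalcone synthase genes were called higher in TBO on all 5 days. The share of all genes tested that was called higher ran from 3.90% to 6.67% by day. Cs9g11190 averaged 378 ± 51.9 FPKM in TBO and 1.42 ± 0.498 FPKM in BTSO on day 0, and 1838 ± 198 FPKM in TBO and 7.32 ± 3.56 FPKM in BTSO on day 60 (SD, n = 3 each). Cs2g14720 averaged 29.2 ± 7.39 FPKM in TBO and 0.0791 ± 0.0704 FPKM in BTSO at 60 DAS, with log2 differences between 2.56 and 4.78. At 60 and 90 DAS, 4 and 5 of the 6 were called higher, against 6.67% and 5.95% of all genes tested. Cs2g14720, with BTSO means between 0.0503 and 0.327 FPKM, passed the filter through TBO alone, where it had to be the higher. Whether others of the 6 did so was not examined, and the counts are given as a description. At 0 DAS 1 of the 6 was called lower, against 4.03%.

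Among lignin branch genes, most calls of a lower level in TBO fell on methyltransferases. Of 14 tested genes described as caffeic acid 3-O-methyltransferase, 6, 6, 8, 6 and 5 were called lower on days 0, 15, 30, 60 and 90 and 0, 0, 0, 3 and 1 higher. Among all genes tested, 3.78% to 5.28% were called lower and 3.90% to 6.67% higher, depending on the day. Lower on all 5 days were Cs1g22590, Cs5g16290 and Cs5g25000, and of the caffeoyl-CoA O-methyltransferase genes Cs8g05410. Of the 3 caffeoyl-CoA O-methyltransferase genes, 2, 2, 2, 1 and 1 were called lower on the 5 days, and 1 was called higher on day 60. Their median log2 differences were -1.37, -1.44, -1.10, 0.31 and 0.28. Cs5g25000 averaged 5.15 ± 0.762 FPKM in TBO and 18.2 ± 1.35 FPKM in BTSO on day 60 (n = 3 each, SD). Its log2 difference was lowest on day 30, at -1.76. The locus that holds Cs5g24930, Cs5g24940, Cs5g24950 and Cs5g24960 was the most expressed of those described as caffeic acid 3-O-methyltransferase. It was called lower at 30, 60 and 90 DAS with log2 differences of -1.63, -1.56 and -1.13. Of 5 cinnamoyl-CoA reductase genes, 1 was called higher on day 60 only. The most expressed, orange1.1t02754, reached a log2 difference of -0.99 on day 60 (adjusted p = 2.48e-05, limma). It was not called because it missed the log2 limit of 1. For hydroxycinnamoyltransferase, 1 of 7 genes was lower on days 0 and 15 and 1 higher on days 60 and 90. The p-coumaroyl ester hydroxylase gene Cs6g16650 was lower on day 90 (-1.07), and 1 of 2 ferulate hydroxylase genes was higher on day 60. The single cinnamyl alcohol dehydrogenase gene tested, Cs5g01110, had log2 differences between -0.88 and -0.16, and the feruloyl-CoA hydroxylase gene of the coumarin branch, Cs2g29260, between -0.32 and 0.16, with no call. The -0.88 of Cs5g01110, on day 0, passed the p-value limit but not the log2 limit (adjusted p = 0.000433, limma).

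**Figure D5:**
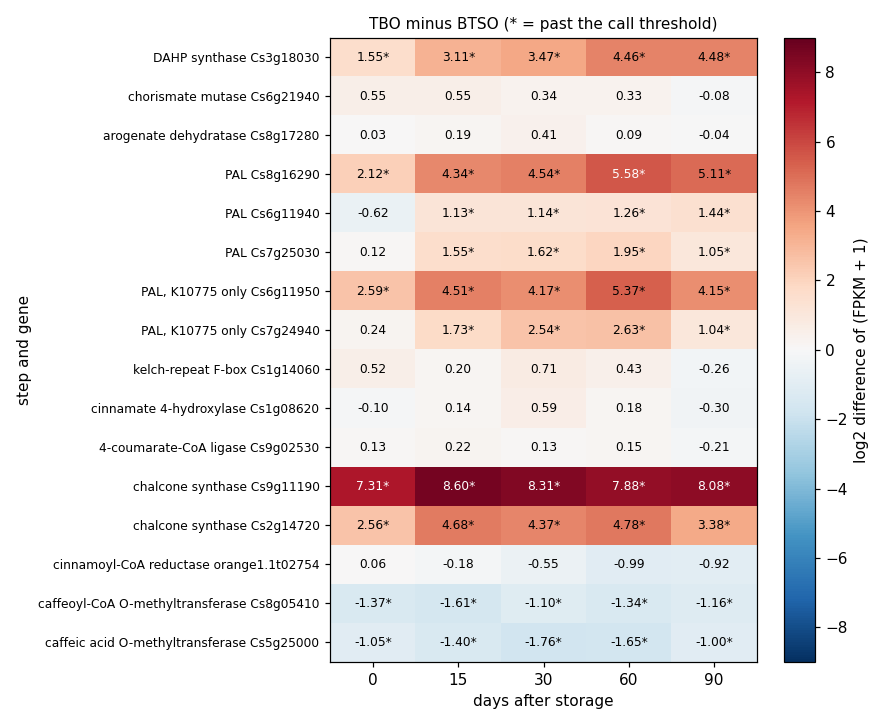
TBO minus BTSO log2 difference of (FPKM + 1) on each day after storage for the PAL genes and for genes of the steps before and after them, with the value in each cell and a star where called. DAHP synthase Cs3g18030 and the chalcone synthase genes shown are higher in TBO on all days, as are Cs8g16290 and Cs6g11950. Cinnamate 4-hydroxylase Cs1g08620 and 4-coumarate-CoA ligase Cs9g02530 stay within 0.59 of 0. Cs2g14720, Cs7g25030 and Cs7g24940 passed the filter through TBO alone.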

How the data were processed

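Reads were filtered by the authors for rRNA and quality and mapped to the sweet orange genome, transcripts were assembled with StringTie and merged, and the deposited FPKM values were computed. The same deposited table lists an estimated count per gene and library as whole numbers, which were rounded estimates and not reads, so no counting interval was computed. The submitters' processing notes name Bowtie 0.12.2, HISAT2 2.0 and StringTie 1.3.0 without their roles, and the sweet orange build is not given in the sources used here. The paper and the labels name different sequencers. Differential calls used R 4.3.3 and limma 3.58.1 on log2(FPKM + 1), with a mean for each of 10 groups, trended moderated variances and no covariate, over 16578 genes at 1 FPKM or more in at least 3 libraries. Benjamini-Hochberg adjustment ran over all genes. Sums and ratios were compared by two-sided exact permutation.

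Alternatives were a pseudocount of 0.1, no filter, upper-quartile scaling, quantile normalization, edgeR 4.0.16 and DESeq2 1.42.0 on the estimated counts, a replicate block, adjusted p-values, fits per day and each library left out. Python 3.11.15, numpy 2.4.6, pandas 2.3.3 and matplotlib 3.10.9 were used, and the steps were tested on simulated data. The named genes are all PAL genes, for each pathway step the gene with the highest mean FPKM, every pathway gene called in 1 direction on all 5 days, and the 3 genes most like each PAL gene. Members and lists were chosen with earlier results of these data known. The 2 further genes, the lists by orthology number, the copy ratios and the comparison of 90 with 60 DAS were chosen after the values had been seen. Of the 5 PAL genes, 0 matched the RefSeq gene table, so no sequence or position is printed. The lists held 0 prephenate aminotransferase genes.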

Additional observations from a re-analysis of the deposited data

Results flagged for a closer look

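The difference between TBO and BTSO was itself larger at a later day than at 0 DAS for the PAL genes below, by the limma interaction with an adjusted p-value under 0.05. For Cs8g16290 the change of the log2 difference was 2.22 on day 15, 2.42 on day 30, 3.46 on day 60 and 2.99 on day 90. For Cs6g11940 it was 1.76 on day 30, 1.88 on day 60 and 2.05 on day 90. For Cs7g25030 it was 1.43 on day 15, 1.51 on day 30 and 1.83 on day 60. For Cs7g24940 it was 2.30 on day 30 and 2.39 on day 60, and for Cs6g11950 it was 2.78 on day 60. The 13 changes all use the same 6 libraries of 0 DAS. Cs7g25030 and Cs7g24940 reached the filter only through the later days of TBO, so their changes are given as a description. Groups of 3 libraries were not searched for outlying samples.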

How the results depend on the processing

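No PAL gene changed direction in a called comparison under any alternative. The calls between varieties numbered 13 of 15 for the 3 genes (22 of 25 for the 5 genes) and ranged between 12 and 13 (20 and 22) with 1 library left out. They were 11 (19) with upper-quartile scaling and 12 (20) with quantile normalization, edgeR or DESeq2. Those within TBO numbered 10 of 12 (17 of 20), between 8 and 10 (14 and 18). The single BTSO call stayed at 1 for the 3 genes and lay between 1 and 2 for the 5, being 2 without BTSO replicate 2 of 0 DAS or replicate 1 of 30 DAS. With a pseudocount of 0.1 it became 2 (4), and with edgeR or DESeq2 2 (3), because low copies at 90 DAS then passed the limit. The changes of the variety difference, 10 of 12 (13 of 20), ranged between 5 and 12 (8 and 18): 5 (8) without TBO replicate 1 of 0 DAS, and 6 without TBO replicate 3 or BTSO replicate 2 of 0 DAS. The calls of the pathway lists at the 5 days ranged from 12 to 22, 11 to 18, 8 to 25, 17 to 26 and 14 to 24.

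The TBO minus BTSO difference of the summed FPKM was -5.41, 82.6, 107, 164 and 88.3 on days 0, 15, 30, 60 and 90. With 1 library left out it lay between -15.7 and 1.86, 62.9 and 96.7, 76.9 and 122, 145 and 181, and 85.8 and 93.2. With the 2 further genes it was 131, 176, 262 and 113 at 15, 30, 60 and 90 DAS, without Cs6g11940 it was 48.9, 60.3, 114 and 76.4 on those days, and with upper-quartile scaling 79.4 at 90 DAS.

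With the replicate number as a block, the counts were 13 (22), 10 (17), 1 (1) and 10 (13). Deviations correlated at a median of 0.01 for 135 pairs of libraries of the same replicate number and -0.01 for 270 pairs of different numbers. A correlation over 0.1 was found in 33 of the 135 pairs and in 37 of the 270. The medians therefore do not settle whether some of the libraries were paired. Upper-quartile scaling moved the median difference of all genes at 15 DAS to -0.03, against 0.13, and the share of calls that were higher in TBO to 38.2%, against 57.8%. At 0 DAS that share was 37.2%, against 49.2%, and at 90 DAS 43.0%, against 54.6%. Depth limits cannot be set from estimated counts, and Cs7g25030 and Cs7g24940 lay near or under 1 FPKM in BTSO.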
